A study of Mus musculus with 6 samples.

Results

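FGF feedback and target genes were examined in ear tissue of mouse embryos at embryonic day 11.5, in which Tbx1 had been deleted with T-Cre. The group was chosen by name and held 10 genes, and it was represented by every probe set listed for those names on the Mouse Genome 430 2.0 array, 31 of 45037 probe sets. Of these, 28 were listed for 1 gene and together covered 9 of the 10 genes, out of 18193 genes with such a probe set. The 3 probe sets of Etv1 were listed for the pseudogene Gm5454 as well and are described apart. The tissue was the otic vesicle, from whose epithelium the inner ear forms, and the mesenchyme around it, and each array held RNA from both ears of 3 pooled embryos. Mest-KO pools were conditional Tbx1 knockouts made with T-Cre, and control pools were T-Cre conditional Tbx1 heterozygotes, with 3 arrays of each. Both groups therefore carried T-Cre, a Cre driven from the Brachyury gene that acts in early mesoderm, and the control had also lost a copy of Tbx1 there. The labels give no further allele and no wild type. The otic epithelium, which is not mesoderm and also makes Tbx1, is not the target of this Cre but was part of every pool.

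Fibroblast growth factors bind receptor tyrosine kinases and signal through Ras and the kinase ERK. ERK signalling induces ETS transcription factors of the PEA3 subfamily (Etv1, Etv4, Etv5), which act on target genes, and a set of inhibitors (Sprouty and Spred proteins, the phosphatase Dusp6 and the membrane protein Il17rd, also called Sef) that damp the pathway in turn. Transcripts of these genes are therefore widely used as a readout of FGF-ERK activity, and in the ear FGF signals between mesenchyme, hindbrain and otic epithelium take part in forming the vesicle.

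Every array had been scaled by the authors to the same mean, and array medians ran from 59.954 to 70.6371 intensity units. Probe sets for unspiked bacterial RNA, 27 in all, reached 11.2 at most, taken here as background. For all 9 genes the brightest probe set read above it on every array, the lowest value being 146.8. Tbx1 itself averaged 512.8 ± 61.1 in the controls and 502.8 ± 85.4 in the Mest-KO pools (SD over 3 arrays; exact permutation p = 0.9). This does not check the labels, since otic epithelium makes Tbx1 too and it is not known here whether the probe set targets the deleted exons. Where values are listed for single pools, they are in the order of the replicate numbers. Of the labelled tissue, none of 12 measured marker genes of the otic epithelium and 11 of periotic mesenchyme were at background on all arrays. The same held for lists of tissue outside the label, such as pharyngeal endoderm, so this does not check which tissue was taken. Oc90, an otoconial protein gene of the otic epithelium, read 3075 ± 262.4 in control and 3484 ± 384.5 in Mest-KO, and Prrx1, a homeobox gene of head mesenchyme, read 6047 ± 170.9 and 6074 ± 185.9. Most genes of both lists read lower in Mest-KO. Of the otic epithelium genes 8 of 12 did, with a median difference of -0.17 on the log2(intensity + 16) scale, Mest-KO minus control, and 3 lower at an unadjusted p under 0.05 (Otx1, Cdh1 and Gata3), and of the periotic mesenchyme genes 8 of 11, with a median of -0.30 and 5 lower (Foxf1, Foxf2, Tbx15, Pou3f4 and Prrx2). Over all 14166 genes tested, 6542 read lower in Mest-KO and 464 were lower at an unadjusted p under 0.05. Of the genes measured in both lists only Meox1, a mesenchyme gene that was higher in Mest-KO, passed the adjusted test (1.15 ± 0.18; limma, adjusted p = 0.0434). Marker genes of the neighbouring hindbrain neural tube were mostly lower in Mest-KO and were also unequal among the control pools. Of 14 tested, 13 read lower in Mest-KO, with a median difference of -1.20 and 9 lower at an unadjusted p under 0.05. Skor1 passed the adjusted test (-3.46 ± 0.49; limma, adjusted p = 0.0252). The exception, Irx3, was the brightest gene tested of this list. The summed intensity of the list (17 genes measured, Olig2 and Dbx2 at background on all arrays) was 4024 in control 1, 1769 in control 2 and 4043 in control 3, against 1258 to 2169 in Mest-KO. The same controls stood apart in the summed intensity of 3 Y-linked genes, at 1378 in control 1, 2577 in control 2 and 1395 in control 3, against 2289 to 2609 in Mest-KO.

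None of the FGF feedback and target genes passed the test between Mest-KO and control. Differences are given on the log2(intensity + 16) scale as Mest-KO minus control with standard errors from a linear model (limma) fitted to 14166 genes, each represented by its brightest probe set, two-sided, with Benjamini-Hochberg adjustment over all of them and a threshold of 0.05. Of the 9 genes tested, 0 passed, where 0.134% of all genes did (19 genes, 11 higher and 8 lower in Mest-KO; 22 higher and 52 lower with arrays centred on their medians, and 10 higher and 11 lower with quantile normalization). At an unadjusted p under 0.05, 1 of 9 differed (11.1%), where 9.04% of all genes did. For 3 of 9 genes the groups were fully apart, where this held for 14.6% of all genes. Of these 3, 1 was higher in Mest-KO (9.35% of all genes) and 2 were lower (5.22%). The sizes were small. Differences ran from -0.20 to 0.20, and the median size without regard to sign was 0.11, against 0.10 over all genes tested. Of the 9 genes 3 read higher and 6 lower, with a median difference of -0.030 against 0.013 over all genes, and with arrays centred on their medians 1 read higher and 8 lower. The 95% intervals of all 9 genes lay inside a 1.5-fold change either way, between 0.712-fold and 1.27-fold. This held for the brightest probe set of each gene, and of 16 further probe sets tested, 6 had intervals that reached past 1.5-fold, the widest bounds being 0.606-fold and 1.91-fold. Folds here are of intensity + 16, which understates changes of intensity for dim probe sets. Standard errors were also larger with the neural tube genes as a covariate, where Etv4 differed by -0.31 ± 0.22. A change limited to a small part of the tissue would be diluted in these pools, and fewer cells of a type cannot be told apart from less RNA per cell.

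**Figure D1:**
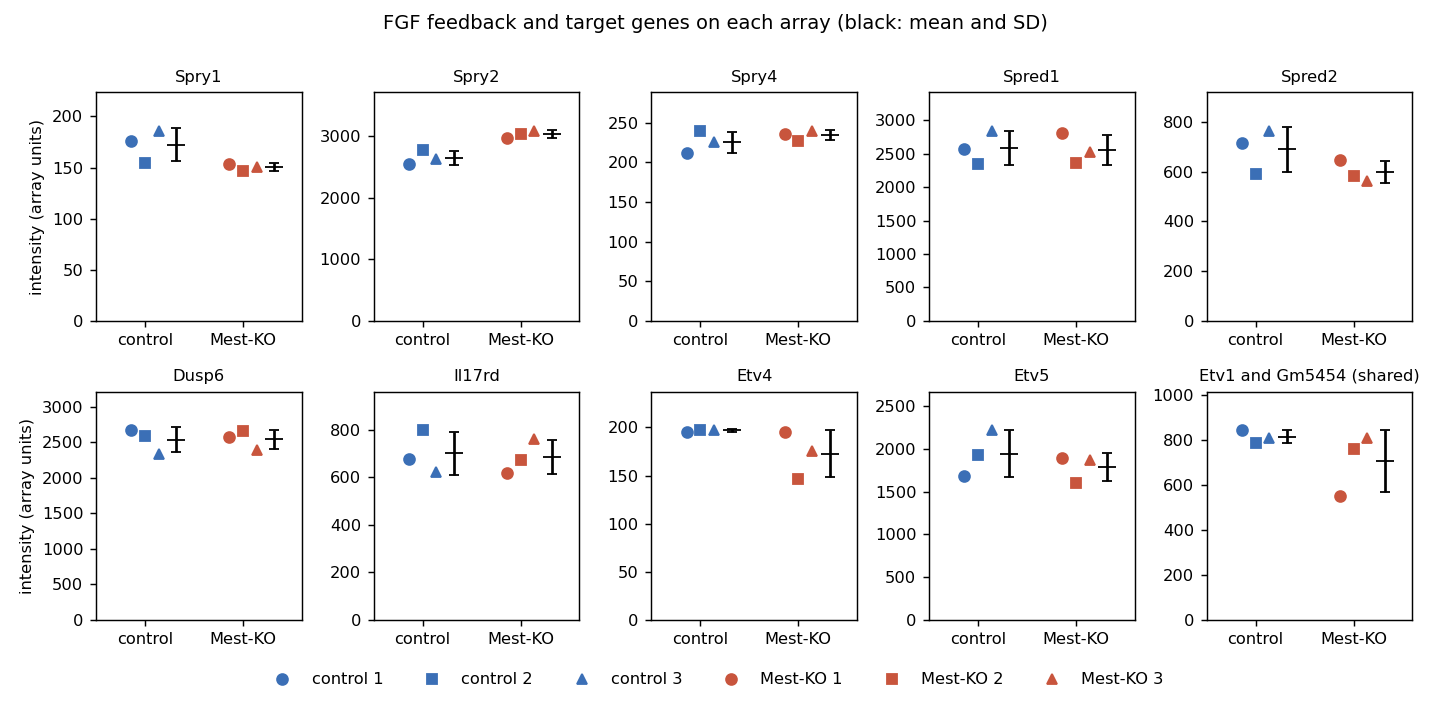
Intensity on each array (y axis, linear and starting at 0, with a scale of its own in every panel) for the brightest probe set of each FGF feedback and target gene, in 3 control pools (blue) and 3 Mest-KO pools (red), with mean and SD in black. Spry2 alone among the 9 genes reads higher in all 3 Mest-KO pools, Spry1 and Etv4 read lower in all 3, and the groups overlap for the other 6; the last panel is a probe set shared by Etv1 and Gm5454.

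Sprouty proteins are cytoplasmic inhibitors of receptor tyrosine kinase signalling to Ras and ERK. Differences of the 3 Sprouty genes did not share a sign. Spry2 read 2541, 2771 and 2619 in the 3 control pools and 2967, 3036 and 3090 in the 3 Mest-KO pools. All 3 Mest-KO pools were above all controls, with a spread within each group smaller than the gap between the group means. The difference was 0.20 ± 0.069, a 95% interval from 1.03-fold to 1.27-fold, with an unadjusted p of 0.0160 that did not pass over all genes (limma, adjusted p = 0.412; exact permutation p = 0.1, the smallest that 3 arrays against 3 can give). A dimmer probe set of Spry2 differed by 0.25 ± 0.24, with Mest-KO 1 at 30.1, below every control, and Mest-KO 2 and 3 at 68.8 and 72.9, above them.

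Spry1, measured by its only probe set, lay on the other side. It read 175.8, 154.8 and 186.3 in the 3 control pools and 153.8, 146.9 and 150.9 in the 3 Mest-KO pools. The groups did not overlap, but the gap was less than 1 unit of intensity wide, between control 2 and Mest-KO 1. The difference was -0.17 ± 0.13 (limma, adjusted p = 0.751). Spry4 read 212.4, 239.0 and 225.5 in control and 235.4, 227.3 and 240.2 in Mest-KO. The groups overlapped, and the difference was 0.052 ± 0.12 (limma, adjusted p = 0.934), below 0 with arrays centred on their medians. A further probe set of similar brightness differed by 0.065 ± 0.19 and a dim one by -0.30 ± 0.19, while the fourth was at background on all 6 arrays.

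The 250 bases before the start of Spry1 and Spry2 are shown because the differences of these close relatives had opposite signs. Neither passed, and whether the genes differ from each other was not tested. They are RefSeq sequences of GRCm38.p6, written along the gene's strand with CpG dinucleotides in capitals. The Spry1 window is chr3:37639697-37639946 on the plus strand and the Spry2 window is chr14:105896820-105897069 on the minus strand.
Spry1: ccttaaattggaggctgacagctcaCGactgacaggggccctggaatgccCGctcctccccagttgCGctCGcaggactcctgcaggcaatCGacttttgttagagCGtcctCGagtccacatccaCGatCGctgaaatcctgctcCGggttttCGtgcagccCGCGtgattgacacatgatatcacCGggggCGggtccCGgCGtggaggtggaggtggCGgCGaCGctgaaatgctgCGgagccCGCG
Spry2: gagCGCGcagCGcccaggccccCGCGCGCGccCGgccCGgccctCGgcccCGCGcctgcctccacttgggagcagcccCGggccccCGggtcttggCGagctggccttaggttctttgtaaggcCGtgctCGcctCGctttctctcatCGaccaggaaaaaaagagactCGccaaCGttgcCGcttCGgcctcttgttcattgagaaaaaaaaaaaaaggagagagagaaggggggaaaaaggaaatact
Both windows held 23 CpG and 62.4% G and C. Over the 10 windows listed for 8 of the 10 genes the median was 17 CpG, against 6 over 32851 windows of the same length. Exact matches were searched on both strands to CCGGAAG, a core bound by ETS factors, GGTGTGA, part of the T-box element, and TGACGTC, part of the cyclic AMP response element. The ETS letters were in 0 of 10 windows, against 6.91% of all windows, the T-box letters in 0 of 10, against 3.33%, and the third in 1 of 10, against 2.78%. That match lay in Spred2, 53 to 47 bases before the start, and is capitalised in its window, chr11:19924192-19924441 on the plus strand.
Spred2: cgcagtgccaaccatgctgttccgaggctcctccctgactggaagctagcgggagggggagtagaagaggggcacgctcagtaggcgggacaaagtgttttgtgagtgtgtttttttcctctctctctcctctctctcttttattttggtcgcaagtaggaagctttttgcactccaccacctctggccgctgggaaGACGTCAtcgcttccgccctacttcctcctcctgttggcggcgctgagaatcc
A match is a description of the letters in these windows and not a binding site, and 2 of the genes, Spry4 and Etv4, were not part of the search. At such shares 0 of 10 windows is not unusual. An absent match does not show that a gene lacks a site, since only these exact letters within 250 bases were searched.

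Spred proteins are membrane-associated relatives of the Sprouty proteins that hold back Ras, Spred1 by bringing the Ras inactivator neurofibromin to the membrane. Spred2 had the most negative difference of the 9 genes. It read 716.1, 589.5 and 765.4 in the 3 control pools and 647.1, 582.2 and 562.6 in the 3 Mest-KO pools. Control 1 and control 3 were above every Mest-KO pool, and control 2 lay among them. The difference was -0.20 ± 0.12 (limma, adjusted p = 0.663). These are the control pools in which the hindbrain neural tube genes were high and the Y-linked genes low, as given above, and with 3 controls these cannot be told apart. The neural tube genes also differed between the groups, so a fit with them as a covariate cannot separate them from genotype. In that fit the difference of Spred2 was 0.024 ± 0.18, and with the Y-linked genes it was -0.10 ± 0.13. With arrays centred on their medians it was -0.26 (unadjusted p = 0.0475; limma, adjusted p = 0.555), and without control 2 it was -0.31 (unadjusted p = 0.0289; limma, adjusted p = 0.396). A second probe set of Spred2 differed by -0.21 ± 0.18 and a dim one by 0.016 ± 0.19, and the remaining 2 of its 5 probe sets were too dim to be tested.

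Spred1 was covered by 8 probe sets, the most of any gene here. The brightest read 2578, 2347 and 2850 in the controls and 2805, 2360 and 2525 in the Mest-KO pools, with a difference of -0.015 ± 0.093 (limma, adjusted p = 0.981). The groups overlapped fully. The 6 probe sets with a mean above 100 units all differed by between -0.16 and -0.015, and those below that level by 0.39 ± 0.25 and -0.043 ± 0.21. The 6 did not rank the pools alike. Mest-KO 1 was the highest pool on a probe set where it read 1493, and the lowest on another, at 743.0.

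Dusp6 encodes a cytoplasmic phosphatase that removes the activating phosphates from ERK, and it is among the genes most often used to show where FGF signalling is active. It read 2679, 2595 and 2341 in the 3 control pools and 2570, 2663 and 2398 in the 3 Mest-KO pools. The ranges lay almost on top of each other. The difference was 0.0040 ± 0.080, with a 95% interval from 0.887-fold to 1.13-fold (limma, adjusted p = 0.994), and 97.7% of all genes tested had a larger difference in either direction. Il17rd encodes a transmembrane protein that inhibits FGF signalling. It read 679.1, 801.8 and 623.7 in control and 621.1, 671.7 and 763.2 in Mest-KO. The highest and the lowest pools came 1 from each group, and the difference was -0.030 ± 0.12 (limma, adjusted p = 0.966). A dim second probe set differed by 0.17 ± 0.20, and fitted with the neural tube covariate the difference of Il17rd was -0.28 (limma, adjusted p = 0.861).

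The PEA3 factors are transcribed in response to FGF-ERK signalling and in turn activate genes of the response. Etv4 read 195.5, 197.7 and 197.6 in the 3 control pools and 195.2, 146.8 and 176.0 in the 3 Mest-KO pools. The controls were nearly identical, while the Mest-KO pools spread from the control level down, with Mest-KO 2 lowest. The groups did not overlap, by a margin of less than 1 unit at Mest-KO 1. The difference was -0.18 ± 0.14 (limma, adjusted p = 0.750), and without Mest-KO 2 it was -0.080. A dim second probe set of Etv4 differed by 0.0046 ± 0.23. Etv5 read 1686, 1925 and 2227 in the controls and 1897, 1604 and 1869 in the Mest-KO pools. The groups overlapped, and the difference was -0.11 ± 0.11 (limma, adjusted p = 0.816), which was -0.013 without control 3. Its other probe sets differed by -0.026 ± 0.18 and -0.17 ± 0.20.

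The probe sets of the third PEA3 gene, Etv1, were also listed for Gm5454, so signal of the gene and of the pseudogene cannot be told apart. All 3 read lower in Mest-KO. The brightest read 847.0, 787.2 and 811.9 in the 3 control pools and 549.9, 759.6 and 811.8 in the 3 Mest-KO pools. Mest-KO 1 was far below the rest, and the groups overlapped (-0.22 ± 0.14). The second, of nearly the same brightness, read 817.5, 851.5 and 814.9 in control and 678.1, 725.8 and 620.3 in Mest-KO. Its groups did not overlap, and the difference was -0.29 ± 0.10 (limma over 27403 probe sets, unadjusted p = 0.0149, adjusted p = 0.393). The third, between 10.7 and 27.0 units and close to background, differed by -0.43 ± 0.18 (limma, adjusted p = 0.475). Of these 3, 2 were lower at an unadjusted p under 0.05 (3.34% of all probe sets in that fit), and the same 2 had every Mest-KO pool below every control (5.83%). The 3 share their targets and are not separate evidence, so these counts are not an excess over those shares.

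**Figure D2:**
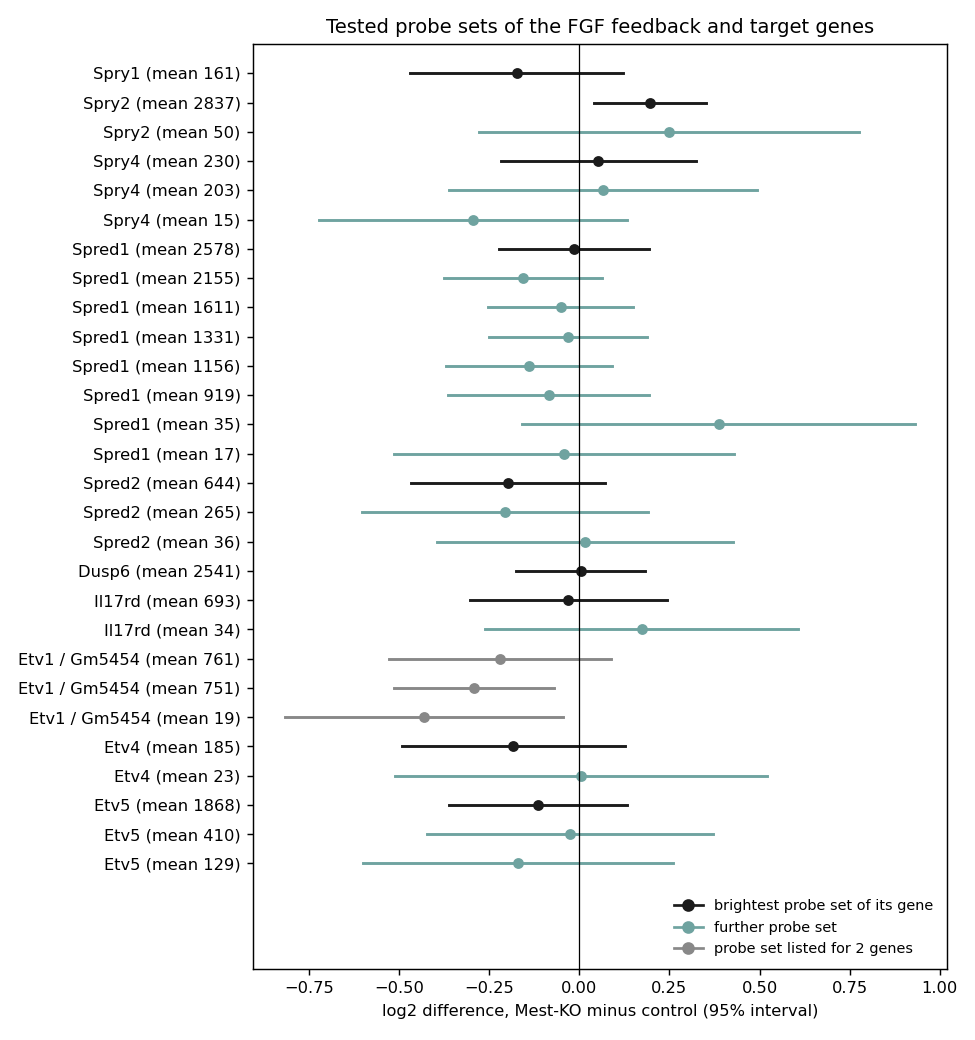
Log2 difference, Mest-KO minus control (x axis), with its 95% interval for the 25 tested probe sets of 1 gene and the 3 shared by Etv1 and Gm5454, ordered by gene and then by mean intensity over 6 arrays, which is given in brackets. Black points are the brightest probe set of a gene, green further ones and grey the shared ones; among the single-gene probe sets only the bright one of Spry2 has an interval that leaves out 0.

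Over single probe sets the picture was the same. Of the 28 listed for 1 gene, 25 were bright enough to be tested and 3 were not. Of these 25, 0 passed (limma, lowest adjusted p = 0.411), where 0.0748% of the 26729 probe sets tested did. At an unadjusted p under 0.05, 1 of 25 differed (4%), where 9.22% of all did, and groups did not overlap for 3 of 25 (12%), where 14.6% of all did. Probe sets of a gene share their target and are not separate evidence.

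The array profiles of the 3 genes with the smallest p had close matches among all genes tested, judged by the root mean square difference of log2 values over the 6 arrays, each centred on its own mean. For Spry2 the closest were St6galnac3 (0.016), Mon1b (0.022) and Pi4k2b (0.022). For Spred2 they were Brwd1 (0.028), Rfx3 (0.029) and Acsl3 (0.031), each of which read higher in control 1 and control 3 than in control 2. For Etv4 they were Pcyt1a (0.038), Cenpu (0.043) and Eif2b5 (0.046), each lowest in Mest-KO 2. With 6 arrays and 14166 genes such matches are a description only.

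Several cell type lists moved with the groups and are given beside these values. Summed intensities of genes of neurons (9 genes measured) were 24806 to 26880 in the controls and 29946 to 31843 in the Mest-KO pools, those of neural crest and glia (5 genes) 6796 to 7187 and 7642 to 8372, and those of blood endothelium (6 genes) 3628 to 3927 and 3984 to 4416, all without overlap and higher in Mest-KO, as Spry2 was. Sums for pharyngeal endoderm (9 genes) were 2981 to 3754 in the controls and 2256 to 2569 in the Mest-KO pools, and for periotic mesenchyme (11 genes) 20120 to 20832 and 17814 to 20013, lower in Mest-KO, as Spry1 and Etv4 were. Sums for otic epithelium overlapped, at 9825 to 11849 and 9491 to 11715. None of the genes measured in these lists was at background on all arrays. Bright genes weigh most in a sum, and the gap for periotic mesenchyme was narrow. Gene by gene, 6 of 9 tested for neurons lay fully higher in Mest-KO (9.35% of all genes). For neural crest and glia 3 of 5 did, and for endothelium 2 of 6. Fully lower (5.22% of all genes) were 3 of 8 for endoderm and 4 of 11 for mesenchyme, with 1 fully higher in each. The part of these lists in the values of Spry2, Spry1 and Etv4 was not tested.

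The other genes of the pathway were taken as 4 lists with 55 tested genes, of which 0 passed (limma) and 12 had an unadjusted p under 0.05 (21.8%), 7 higher and 5 lower in Mest-KO, against 9.04% of all genes. The lists were chosen with earlier results of these data known, so this share is a description only. Whether it exceeds that of all genes was not tested. Among 18 FGF ligands, 10 were tested and 2 of these were higher and 2 lower at an unadjusted p under 0.05, with a median difference of 0.086. Fgf1, an FGF that binds all FGF receptors, read 45.7, 63.5 and 44.5 in the 3 control pools and 23.3, 20.3 and 27.0 in the 3 Mest-KO pools, without overlap (-0.76 ± 0.18; limma, adjusted p = 0.183). Fgf15 read 132.0, 46.9 and 118.8 in control and 36.6, 22.7 and 45.5 in Mest-KO, with control 2 close to the Mest-KO pools (-1.11 ± 0.30; limma, adjusted p = 0.242). In Mest-KO both Fgf1 and Fgf15 were dim, where background reached 11.2. Fgf18 lay on the other side, at 143.2 ± 12.4 in control and 193.4 ± 28.9 in Mest-KO (0.39 ± 0.15; limma, adjusted p = 0.457). Fgf8, with Fgf2, Fgf21 and Fgf23, was at background on all 6 arrays.

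Among 7 receptors and coreceptors, 6 were tested and the median difference was 0.080. Klb, encoding the coreceptor beta-Klotho, read 26.6 ± 2.50 in control and 48.1 ± 3.74 in Mest-KO (0.59 ± 0.16; limma, adjusted p = 0.235). These values are dim, where background reached 11.2. The receptor gene Fgfr3 read 398.1, 228.2 and 452.7 in the 3 control pools and 238.1, 245.1 and 180.1 in Mest-KO (-0.62 ± 0.22; limma, adjusted p = 0.416), so that control 1 and control 3 stood apart as they did for Spred2. Fgfr2, the receptor of the ligands FGF3 and FGF10 in the ear, differed by -0.15 ± 0.084 (limma, adjusted p = 0.634).

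Among adaptors and the ERK cascade, 15 of 21 genes were tested, with a median difference of 0.055. Ksr1, encoding a scaffold of the cascade, read 258.5 ± 11.2 in control and 335.5 ± 38.2 in Mest-KO (0.35 ± 0.13; limma, adjusted p = 0.416), the kinase gene Map2k2 differed by 0.19 ± 0.11 and Nf1, encoding neurofibromin, by -0.45 ± 0.27. Among 25 further family members and ERK-responsive genes, 24 were tested, with 3 higher and 2 lower at an unadjusted p under 0.05 and a median difference of 0.038. Flrt1, encoding a membrane protein that binds FGF receptors, read 128.9, 104.5 and 94.7 in control and 220.5, 203.9 and 176.8 in Mest-KO, without overlap (0.79 ± 0.15; limma, adjusted p = 0.106). Lrig3 (0.28 ± 0.086) and Shisa2 (-0.24 ± 0.073) did not pass either (limma, adjusted p = 0.308 and 0.310).

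**Figure D3:**
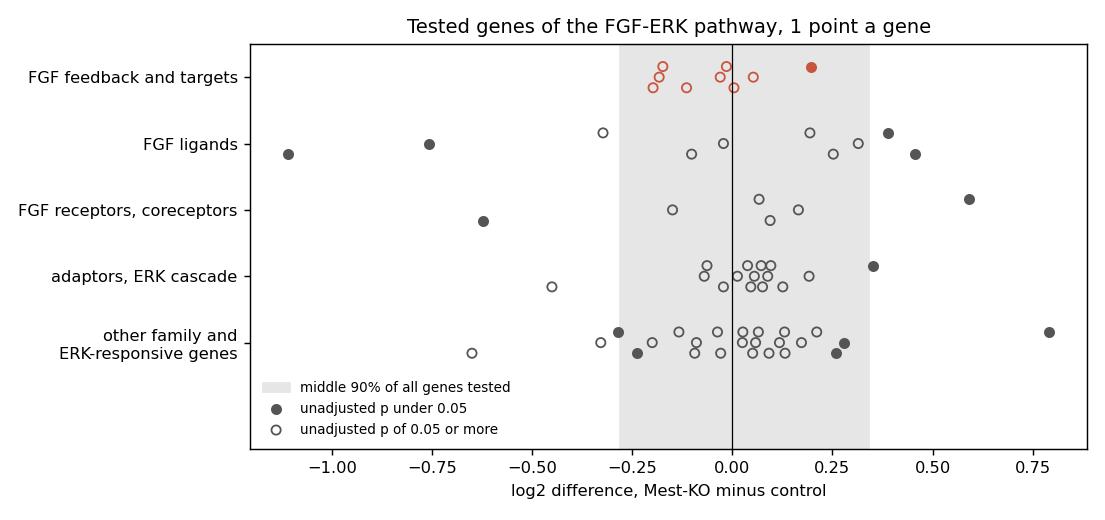
Log2 difference, Mest-KO minus control (x axis), of each tested gene in the FGF-ERK pathway lists (rows), with filled points for an unadjusted p under 0.05 and the middle 90% of all 14166 genes in grey, from -0.28 to 0.34. The 9 FGF feedback and target genes (red) lie within the grey band, between -0.20 and 0.20, while single ligands, receptors and other genes lie outside it, with none past the adjusted threshold.

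The direction of each gene was then compared across 19 processing choices, with 1 array left out in 6 of them. Spry2 ranged from 0.12 to 0.23, Spry1 from -0.24 to -0.045, Etv4 from -0.31 to -0.080 and Etv5 from -0.21 to -0.013, none crossing 0. Spry4, Spred1, Spred2, Dusp6 and Il17rd crossed it in at least 1. Not every choice could turn a direction. Other filters, eBayes without trend, a replicate block and the inclusion of probe sets of several genes left each of these differences exactly as reported. For Spry1, with its only probe set, the mean of all probe sets did so too.

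**Figure D4:**
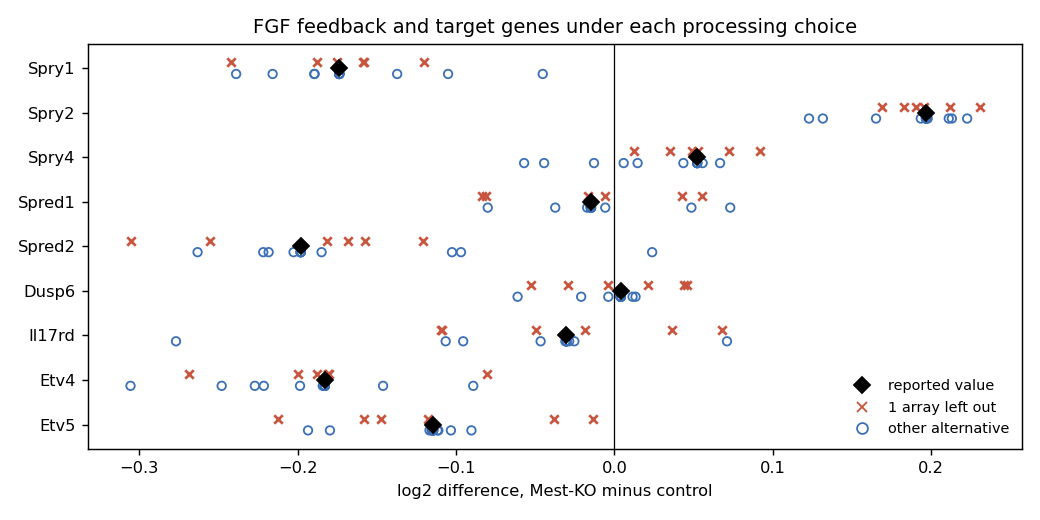
Log2 difference, Mest-KO minus control (x axis), of 9 FGF feedback and target genes as reported (diamonds), with 1 array left out (crosses) and under the other alternatives (circles). Spry2 stays to the right of 0 and Spry1, Etv4 and Etv5 to the left, and no value lies beyond 0.31 in size.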

How the data were processed

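The authors deposited linear intensities, 1 array per pool, made, per the submitters' processing notes, with Affymetrix Expression Console 1.1; how probes were summarized and background removed is not given in the sources used here. Trimmed by 2% at either end, the mean was 500.002 on each array, so the authors had scaled the arrays alike and a shift of most genes at once would be hidden. Control probe sets (64) were dropped. Of the rest, 34945 were listed with 1 gene, 932 with several and 9160 were not listed in GEO's platform annotation; checking Entrez IDs against RefSeq names of GRCm38.p6 changed 0 symbols. Values were taken as log2(value + 16), which understates changes of dim genes. Genes were kept where the mean of their brightest probe set exceeded the 30th percentile of probe set means, 14166 of 18193. Genotype was tested with limma 3.58.1 (R 4.3.3; lmFit, eBayes with trend). The steps were run on simulated data with independent noise and implanted changes of 1.5-fold or more. That run does not show whether differences as small as those of the FGF feedback and target genes would be found. Exact permutation tests were run on single values. Arrays of a group are biological replicates per the labels. For arrays, their number limits the precision.

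The genes and lists were chosen with earlier results of these data known. Named were Tbx1, all 10 genes with every probe set, of each pathway list up to 3 genes with the smallest p, and the 3 genes most alike to each of 3 members. Oc90 and Prrx1, given as tissue markers, were chosen outside this rule after their values were seen, as were the other marker genes named. Alternatives were other normalizations, pseudocounts, filters and probe set rules, variance settings, leaving out each array, a replicate block and 2 covariates (the mean log2 level of the hindbrain neural tube list and of the Y-linked list).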

Additional observations from a re-analysis of the deposited data

How the results depend on the processing

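With 0 of the FGF feedback and target genes past the threshold in limma, each of the 19 alternatives also gave 0. Spry2 read higher and Spry1, Etv4 and Etv5 lower in all 19, which include the choices that cannot change a difference. Spry2 had an unadjusted p under 0.05 in 14, and not with the neural tube (0.12) or Y-linked (0.17) covariate, the mean of all probe sets (0.22), medians as the centre (0.13) or without control 1 (0.17). Spred2 had one in 2, lower both times, with medians as the centre (-0.26), where Spry2 had none, and without control 2 (-0.31). Directions turned for 5 genes, none past the threshold. Dusp6 (0.0040) was -0.061 with arrays centred on their medians, -0.0039 with array weights and -0.021 with the Y-linked covariate, and ran from -0.053 to 0.046 with 1 array left out. Spred1 (-0.015) was 0.073 with the neural tube and 0.049 with the Y-linked covariate, and ran from -0.084 to 0.055 with 1 array left out. Il17rd (-0.030) was 0.071 with the mean of all probe sets and ran from -0.11 to 0.068 with 1 array left out. Spry4 (0.052) was -0.013 with arrays centred on their medians, -0.044 with the mean of all probe sets and -0.057 with the neural tube covariate. Spred2 (-0.20) was 0.024 with the neural tube covariate. The median difference of the genes, -0.030, was -0.10 with arrays centred on their medians and -0.10 with the Y-linked covariate, and ran from -0.11 to -0.030 with 1 array left out. The count of 19 genes over all was 74 with arrays centred on their medians, 2 with no filter, 6 with the mean of all probe sets, 1 with eBayes without trend, 30 with array weights and 4 with the neural tube covariate. Leaving out control 1, 2 or 3 gave 2, 85 and 6, and leaving out Mest-KO 1, 2 or 3 gave 3, 9 and 22. With the replicate block 9 genes passed over all and 0 of these genes. Same-numbered arrays did not deviate together (correlations of -0.032, -0.11 and -0.15 for numbers 1, 2 and 3), so the numbers were not taken to pair the pools. Arrays of unlike number gave -0.14 to 0.24. The highest were control 2 with Mest-KO 3 (0.24), control 3 with Mest-KO 1 (0.19) and control 1 with Mest-KO 2 (0.16). Whether these pools share a source was not tested. The causes of the shifts between processing choices were not tested. Including probe sets listed for several genes was chosen after seeing the data.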
